A study of Saccharomyces cerevisiae with 2 samples.

Results

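The genes TCP1 and CCT2 of the CCT chaperonin, YKE2, GIM3, GIM4, GIM5 and PAC10 of prefoldin, and CIN1, CIN2 and PAC2 of the tubulin folding cofactors, were followed through a genetic interaction screen in Saccharomyces cerevisiae. These are 10 of 5094 genes with a probe on the barcode array. They were selected on the measured log ratios themselves, since chaperonin and prefoldin genes had been seen to be high, so their ratios below describe them and carry no test. In the screen, a pool of barcoded DAmP strains, in which the mRNA of a gene is made less stable, was mated to a strain with a query deletion, and double mutant haploids were grown for 18 generations in G418 and nourseothricin. All strains descended from BY4742/BY4741. The query pool was labelled with Cy3 and a reference GIM pool with Cy5, both on the same array, and 2 arrays from 2 screens formed the only group. The dyes were not swapped, so a dye effect shared by both arrays cannot be told apart from an effect of the query.

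The labels name the query in 2 ways. Titles and the series name give PIH1, whereas sample sources and descriptions give RSA1. Of 34 genes within 50 kb of PIH1, 30 had a mean ratio below 0, with a median of -1.16 on array 1 and -0.83 on array 2. Genes around RSA1 were not summarised in this way. Neighbours of a query deletion are depleted among double mutants because they recombine rarely. With PIH1 as the query, the ratio is thus likely query pool over reference pool. No source states this direction, and if it were opposite, every sign below would turn. The values were read as log2 from their range, and a probe names a gene but not which allele of it was in the pool. The labels call the screens independent without naming separate cultures, so the spread between the arrays may be partly technical.

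CCT, also called TRiC, is a ring-shaped chaperone that closes around unfolded actin and tubulin and releases them folded. Prefoldin is a smaller chaperone with tentacle-like coiled coils that catches actin and tubulin chains as they leave the ribosome and passes them to CCT; its yeast genes were found as GIM genes, a name that refers to microtubules and not to the GIM screen. Alpha- and beta-tubulin released by CCT are then joined into a dimer by the tubulin cofactors. In yeast the CCT genes are essential, while prefoldin and the cofactors are dispensable for growth. Pih1, one of the named query genes, belongs to R2TP, a co-chaperone of HSP90 that also helps assemble protein complexes.

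Both CCT members and 2 of the 5 prefoldin members had high ratios on both arrays, and none of the 3 cofactor members did. TCP1, CCT2, YKE2 and GIM4 stood at or above 1 log2 unit on both arrays, with means between 1.97 and 3.01, whereas CIN1, CIN2 and PAC2 had means between -0.41 and 0.29. Of the other prefoldin members, GIM3 and GIM5 had a value on array 1 only and PAC10 on neither. Of the 6 members with a value on both arrays and outside the regions around PIH1 and RSA1, 4 were at or above 1 on both, against 259 of all 4048 genes there (6.40%). The other member with a value on both arrays, CIN2, lies in the region around RSA1. That contrast chose the members, and the count is given only as a description. The median of the 7 members, CIN2 included, was 1.97, and that of the 6 outside these regions was 2.43. That of the 4048 genes was -0.01.

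TCP1 encodes the alpha subunit of CCT. Its ratio was 1.67 on array 1 and 4.35 on array 2, each the average of 4 probes, with a mean of 3.01 ± 1.89 (SD, n = 2 arrays, here and for every mean below). That mean is 8.06-fold, and ranked 71 of 4048. The probes lay between 1.32 and 1.89 on array 1 and between 4.13 and 4.56 on array 2, so probes of the same array were much closer to each other than the arrays were.

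CCT2 encodes the beta subunit. It stood at 1.96 on array 1 and 3.82 on array 2, with 2 probes each, or 2.89 ± 1.31 (7.40-fold, rank 83). Its 2 probes differed by 0.08 on array 1 and by 0.37 on array 2, against a median of 0.17 and 0.34 over all genes with at least 2 probes on those arrays.

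YKE2 (GIM1) encodes a beta-type prefoldin subunit. Its ratio was 2.16 on array 1 and 3.86 on array 2, or 3.01 ± 1.20 (rank 72). Only 1 of its 2 probes had a value on array 2. On array 1 the probes stood at 1.49 and 2.82, a gap of 1.33, while 95% of genes had a gap below 0.69 there. The probe with a value on both arrays was the higher one, and with that probe alone the mean was 3.34.

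GIM4, another beta-type subunit, had the lowest ratio of these 4 genes on each array and the narrowest spread between arrays. It stood at 1.41 on array 1 and 2.54 on array 2, or 1.97 ± 0.80 (3.93-fold, rank 173). All 4 of its probes had values on both arrays, between 1.33 and 1.48 on array 1 and between 2.41 and 2.82 on array 2.

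The remaining prefoldin members were measured incompletely. GIM3, a beta-type subunit, had 1 probe on array 1 at 0.81, higher than 90.5% of genes there. GIM5, an alpha-type subunit, had 1 probe on array 1 at -0.80, higher than 4.62% of genes. The prefoldin members with any value were thus not all high on array 1. PAC10, the other alpha-type subunit, had 2 probes and no value. Of all genes probed, 3.42% were listed on array 1 alone and 13.7% without any value.

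**Figure D1:**
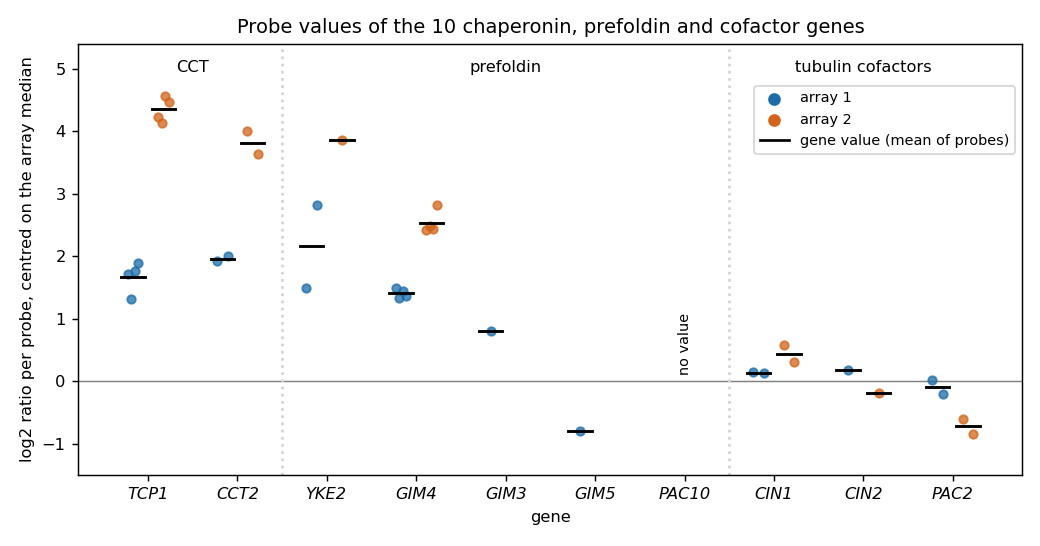
Log2 ratio of each probe (points; vertical axis, centred on the array median) for the 10 genes, on array 1 (blue) and array 2 (orange), with the gene value as a black bar. TCP1, CCT2, YKE2 and GIM4 lie above 1 on both arrays, with larger values on array 2, and CIN1, CIN2 and PAC2 lie between -0.84 and 0.57.

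The cofactor members had smaller ratios, of both signs. CIN1, which encodes cofactor D, a beta-tubulin binder, had 0.14 on array 1 and 0.44 on array 2 (0.29 ± 0.21). CIN2, encoding cofactor C, which stimulates the final release of the dimer, had 0.19 and -0.19 (mean -0.00 ± 0.27) from 1 probe. PAC2, encoding cofactor E, an alpha-tubulin binder, had -0.10 and -0.73 (-0.41 ± 0.45), the lowest member on array 2. On array 1 these 3 genes fell between the 36.6 and 69.6 percentiles of all genes, and on array 2 between 9.55 and 71.8. CIN2 changed sign between the arrays. On array 1 it was the highest of these 3 genes, and on array 2 it lay between PAC2 and CIN1.

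In the order of means, TCP1, YKE2 and CCT2 were closer to each other (3.01, 3.01 and 2.89) than the arrays were for any of them, and their order was not the same on both arrays. On array 1 YKE2 was highest and TCP1 the lowest of these 3, and on array 2 TCP1 was highest. GIM4 came below them and above all 3 cofactor members on each array. Its lowest value was 1.41, and the highest of a cofactor member was 0.44. This gap only describes genes chosen for such ratios. The cofactor gene ALF1, not a member, had 1.37 on array 1 and 5.23 on array 2, below GIM4 on array 1 and above it on array 2.

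The values of the 4 high members were larger on array 2, by 1.13 for GIM4, 1.70 for YKE2, 1.86 for CCT2 and 2.68 for TCP1. Most high genes showed this. Among the 259 genes at or above 1 on both arrays, 245 were larger on array 2, with a median quotient of array 2 over array 1 of 1.90 (quartiles 1.42 and 2.32). The quotient was 1.79 for YKE2, 1.81 for GIM4, 1.95 for CCT2 and 2.60 for TCP1. The spread of all probes was also wider on array 2, with a median absolute deviation, expressed as an SD, of 0.63 against 0.35 on array 1. When the ratios were divided so that both arrays had the same median absolute deviation (MAD scaling), GIM4 had 1.89 on each array, YKE2 2.90 on array 1 and 2.87 on array 2, CCT2 2.64 and 2.84, and TCP1 2.25 and 3.23. On this scale the arrays differed by 0.20 for CCT2 and by less for GIM4 and YKE2, and TCP1 was still 0.98 larger on array 2.

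**Figure D2:**
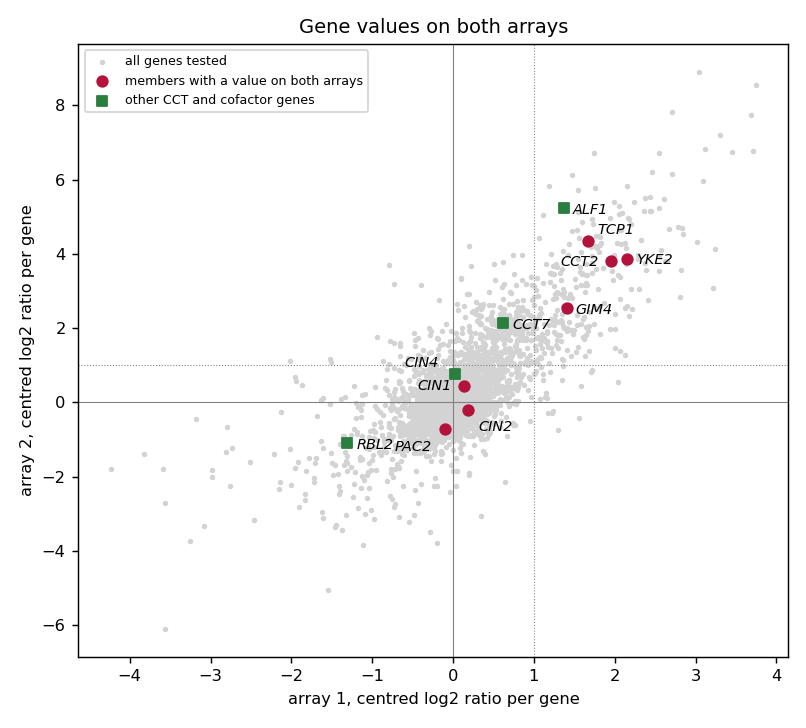
Centred log2 ratio per gene on array 1 (horizontal) and array 2 (vertical) for the 4048 genes tested (grey), the 7 members with a value on both arrays (red circles, CIN2 included) and CCT7, ALF1, RBL2 and CIN4 (green squares). Dotted lines mark a ratio of 1; TCP1, CCT2, YKE2 and GIM4 lie beyond both, while CIN1, CIN2 and PAC2 lie between -0.73 and 0.44 on both.

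Across all genes, limma with Benjamini-Hochberg adjustment called 0 of 4048 (0%), with 678 genes at an unadjusted p under 0.05, so no gene of the folding pathway was called either. With MAD scaling it called 363 genes higher (8.97%) and 93 lower (2.30%), and after quantile normalization 359 higher (8.87%) and 75 lower (1.85%). TCP1, CCT2, YKE2 and GIM4 were among the higher calls in both, and CIN1 and PAC2 were not called. As the members were chosen for these ratios, their calls are a description.

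The genes directly beside the members on their chromosomes were read in the same way, since an allele at a locus can affect the next gene. All 20 such genes had a value on both arrays, and their median was -0.08. Next to the 4 high members, 0 of 8 neighbours were at or above 1 on both arrays, a count too small to set apart from the 6.40% of all genes. Beside TCP1 stood GCD6, a subunit gene of the translation factor eIF2B, at -0.43 ± 0.10, and the sterol regulator gene UPC2 at -0.03 ± 0.12. Beside CCT2 stood SSL2, a helicase gene of the transcription factor TFIIH, at 0.26 ± 0.18.

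On the other side of CCT2 was AXL2, needed for axial bud site selection, with -1.31 on array 1 and -1.84 on array 2, the lowest mean of the 20 neighbours (-1.57 ± 0.37). The pair of adjacent loci AXL2 and CCT2 thus had ratios of opposite sign on both arrays. The proteasome assembly gene PBA1 beside YKE2 stood at -0.08 ± 0.28. COQ9, a coenzyme Q synthesis gene on its other side, was at 0.61 on array 1 and 1.71 on array 2. Beside GIM4, the nucleotide sugar transporter gene YEA4 stood at 0.03 ± 0.08 and WBP1, of the oligosaccharyl transferase, at 0.76 ± 0.38.

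Among neighbours of the lower members, TMA20, whose product binds ribosomes, stood beside PAC2 with 1.63 on array 1 and 2.98 on array 2, the highest of the 20 (2.31 ± 0.95). PAC2 itself was below 0 on both arrays. CIN2 is adjacent to the HSP90 gene HSP82, which stood at -0.25 ± 0.25, and to IQG1, a cytokinesis gene, at -0.20 ± 0.10. YGR079W beside PAC10 was at -1.12 ± 0.11, with AXL2 1 of 2 neighbours among the 20 at or below -1 on both arrays (2.03% of all genes), while PAC10 had no value.

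**Figure D3:**
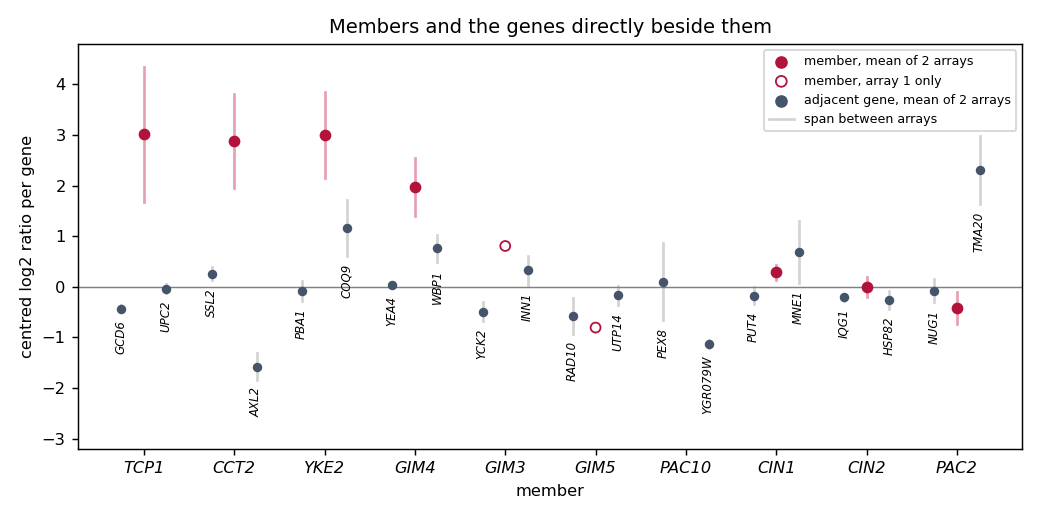
Mean centred log2 ratio over both arrays of each member (red; open circle, array 1 only) and of the gene before and after it on its chromosome (dark blue), with lines spanning the arrays. The means of TCP1, CCT2, YKE2 and GIM4 are at least 1.97, and those of their 8 neighbours run from -1.57 to 1.16.

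The remaining CCT and prefoldin genes were thinly covered. CCT7, encoding the eta subunit, had 0.62 on array 1 and 2.13 on array 2 from 1 probe (1.38 ± 1.07). CCT4, of the delta subunit, had 2 of 4 probes on array 1, at 1.02 and 3.01, and none on array 2. CCT3, CCT5, CCT6 and CCT8 had probes but no value, as did the prefoldin gene PFD1. Of the 8 CCT genes 4 thus had no value, and of the 4 with a value TCP1 and CCT2 were chosen for being high.

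The other tubulin cofactors stood far apart from each other. ALF1, which encodes the alpha-tubulin binding cofactor B, had 1.37 on array 1 and 5.23 on array 2 from 1 probe, a mean of 3.30 ± 2.72, higher than any member on array 2. RBL2, encoding cofactor A, which binds beta-tubulin, had -1.31 and -1.10 from 2 probes on each array (-1.20 ± 0.15). CIN4, a small GTPase gene of the same pathway, had 0.02 and 0.76 (0.39 ± 0.52). Of the 5 cofactor genes tested, 3 were above 0 on both arrays and 2 below, against 34.7% and 33.9% of all genes, and the list median was 0.29. That median was 0.02 on array 1, 0.44 on array 2 and 0.12 without centring. Neither ALF1 (limma adjusted p = 0.308) nor RBL2 (limma adjusted p = 0.230) was called as centred. With MAD scaling ALF1 was called (adjusted p = 0.0439) and RBL2 was not (0.0675), and after quantile normalization both were (0.0412 and 0.0466).

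Regulators and clients of CCT could be read only in part. PLP2, encoding a phosducin-like protein that works with CCT, had 1.05 on array 1 alone, and BUD27, encoding a prefoldin-like protein, 1.53 on array 2 alone. CDH1, an activator of the anaphase-promoting complex whose WD40 propeller is folded by CCT, had 2.01 on array 1 and 1.47 on array 2 (1.74 ± 0.38; limma adjusted p = 0.227). The client gene CDC20 had probes but no value, and neither had ACT1, TUB1 and TUB2, the genes of actin and of the main alpha- and beta-tubulin.

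Genes that act on or with tubulin gave both high and middling ratios. TUB3, the minor alpha-tubulin gene, stood at 0.53 ± 0.12, and TUB4, of gamma-tubulin, at -0.29 ± 0.23. Of its partners in the gamma-tubulin complex, SPC98 had 1.70 on array 1 and 0.81 on array 2 (1.26 ± 0.63) and SPC97 stood at 0.25 ± 0.01. In the list of microtubule-binding proteins and kinesins (10 genes tested, median -0.04), 2 were at or above 1 on both arrays (6.40% of all genes). These were CIN8, a mitotic kinesin gene (PAC genes take their name from mutants that need it), at 1.25 ± 0.13, and KAR3, a minus-end-directed kinesin gene, at 1.25 ± 0.15. BIK1, a plus-end protein gene (-0.93 ± 0.10), and VIK1, a partner of Kar3 (-0.55 ± 0.25), were lowest.

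The dynein and dynactin list (9 genes, median -0.12) had 0 genes at or above 1 on both arrays, too few genes to set apart from the 6.40% of all genes. Of those tested, JNM1 (0.50 ± 0.31) and PAC1 (0.31 ± 0.13) were highest; NIP100, in the region around RSA1 and so not tested, stood above them at 0.74 ± 0.12. NUM1, the cortical anchor (-0.56 ± 0.54), and DYN3 (-0.23 ± 0.35) were lowest. The spindle checkpoint list (8 genes, median -0.00) was divided. BUB1, a kinase gene, had 3.21 on array 1 and 3.09 on array 2 (3.15 ± 0.08), and BUB3, encoding its WD40 partner, had 2.80 and 2.84 (2.82 ± 0.02). MAD1 stood at 0.87 ± 0.44 and MAD2 at 0.01 ± 0.20, with BUB2 and BFA1 of the spindle position checkpoint both at -0.34. The means of TCP1 (3.01) and CCT2 (2.89) lay close to these, with SDs of 1.89 and 1.31 between arrays against 0.08 for BUB1 and 0.02 for BUB3. This contrast depended on the scale of the arrays. With MAD scaling BUB1 had 4.32 on array 1 and 2.30 on array 2, and BUB3 had 3.77 and 2.11. On that scale CCT2 had 2.64 on array 1 and 2.84 on array 2, and TCP1 had 2.25 and 3.23.

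The gene of actin itself, a client of CCT, had no value. Genes of actin-binding proteins had a median of -0.02 over 14 genes tested. On both arrays 0 were at or above 1 (6.40% of all genes) and 1 was at or below -1 (2.03% of all genes). That gene was BNI1, encoding a formin, with -1.11 on array 1 and -3.83 on array 2 (-2.47 ± 1.93). ARP2, of the Arp2/3 complex, was highest at 1.04 ± 0.30, followed by the patch gene ABP1 at 0.81 ± 1.19, and the second lowest was ARC35 (-0.23 ± 0.62). Among chaperones of nascent chains, EGD1 (1.08 ± 0.31) and the ribosome-bound Hsp70 gene SSB1 (0.96 ± 1.30) were positive on both arrays and BTT1 stood at 0.06 ± 0.29. SSB1 had 0.04 on array 1 and 1.88 on array 2.

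Over all 11 lists, 53 pathway genes other than members were tested. Their median was 0.03. Beyond 1 log2 unit on both arrays lay 6 positive ones (11.3%, against 6.40% of all genes) and 2 negative ones (against 2.03% of all genes). The positive ones were ALF1, CDH1, CIN8, KAR3, BUB1 and BUB3. CIN8 and KAR3 were below 1 on array 2 with MAD scaling (0.87 and 0.85) and after quantile normalization (0.86 and 0.85). By limma 0 of 53 were called, the smallest adjusted p being 0.227, while 13 (10 positive), or 24.5% against 16.7% of all genes, fell under 0.05 before adjustment. After each scaling 6 of the 53 were called, 5 higher and 1 lower, which is near the share over all genes (8.97% and 8.87% higher, 2.30% and 1.85% lower). ALF1, BUB3, ARP2 and EGD1 were called after both. BUB1 and BNI1 joined them with MAD scaling, and CCT7 and RBL2 after quantile normalization.

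**Figure D4:**
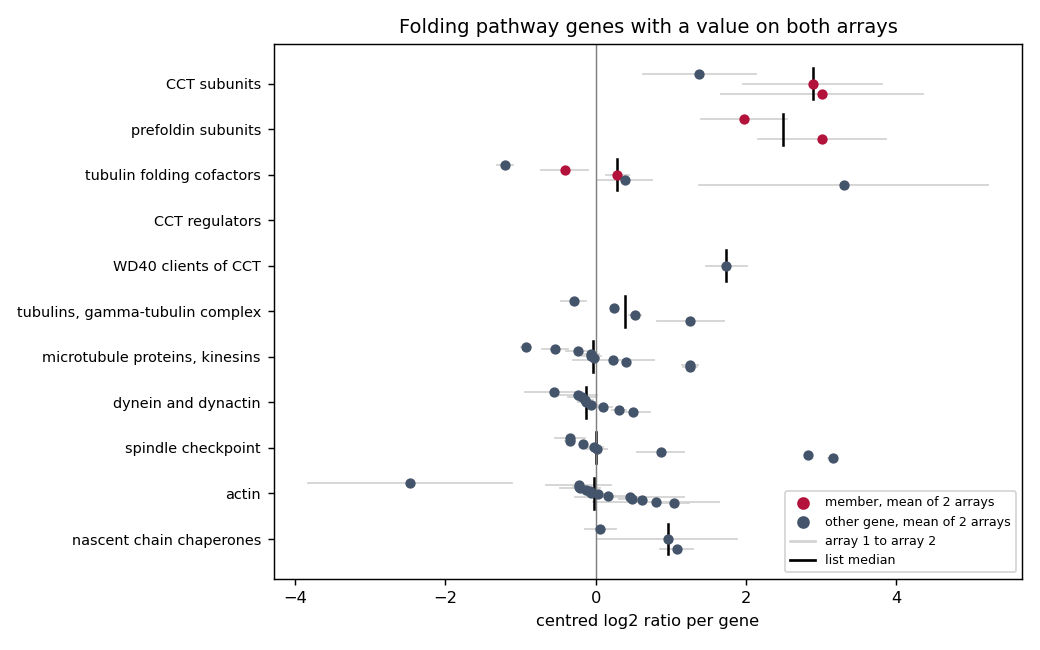
Mean centred log2 ratio over both arrays for genes of the 11 folding pathway lists outside the regions around PIH1 and RSA1 (members red, other genes dark blue), with lines from array 1 to array 2 and list medians as black bars. CCT and prefoldin genes with a value on both arrays lie between 1.38 and 3.01, and all of them but CCT7 are members chosen for being high. Those with a value on only 1 array or on none are not shown. The dynein, actin and microtubule lists have medians near 0. No CCT regulator had a value on both arrays.

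The genes whose pair of array values lay nearest to the median of the members (1.41 on array 1 and 2.54 on array 2, the values of GIM4) were PUB1, MRS2, SUM1, IFM1 and RPS11B, in this order. Their Euclidean distances were 0.03, 0.06, 0.13, 0.17 and 0.23 log2 units over the 2 arrays. PUB1 encodes a poly(A)+ RNA-binding protein, MRS2 a mitochondrial magnesium channel, SUM1 a transcriptional repressor, IFM1 a mitochondrial translation initiation factor and RPS11B a ribosomal protein. Likeness over 2 arrays is a closeness of 2 numbers only.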

How the data were processed

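The deposited table gives, for each probe of a 2-colour Agilent array, a log ratio, read here as log2; it holds 15744 probes, of which 10998 had a value on array 1 and 10382 on array 2. How the authors made these log2 values (base, direction, normalization, filter on dim spots) was not given in the sources used here. Column medians were -0.06 and -0.27. Channel intensities were not analysed here, and the number of arrays limits the precision. The platform annotation gave 1 gene symbol for 13084 probes, none for 2660 and several for none; of 5100 symbols 5034 were current in a table of the R64 assembly, 64 were updated as synonyms and 2 were ambiguous and left out.

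Each array was centred on its probe median and probes were averaged per gene. The fit left out genes lying up to 100 kb from PIH1 or RSA1 (limma 3.58.1, R 4.3.3, intercept against 0, eBayes, Benjamini-Hochberg at 0.05). It was tested on simulated data with the same spread for all genes and both arrays, which the real arrays did not have. Python 3.11.15, pandas 2.3.3 and matplotlib 3.10.9 were used for the other steps. Alternatives concerned centring, scaling, probes, genes tested and arrays. Named were all members, pathway genes measured on both arrays (in lists over 6, mainly the 2 highest and 2 lowest), adjacent genes and the 5 genes nearest to the members. The members and the lists were chosen with earlier results of these data known. Sequences were not used here.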

Additional observations from a re-analysis of the deposited data

How the results depend on the processing

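TCP1, CCT2, YKE2 and GIM4 kept values at or above 1 on every array with a value in each alternative, except that YKE2 had no value when at least 2 probes per array were required, which left 3 such members. The median over members lay between 1.81 and 2.0 in alternatives with both arrays, and was 2.54 without replicate 1 and 1.41 without replicate 2. The mean of CIN2 had no stable sign, at -0.17 without centring and 0.06 after quantile normalization. The limma count, 0 as centred, was 456 with MAD scaling and 434 when the arrays were quantile normalized, and 0 in the other 8 settings, with the smallest adjusted p between 0.0688 and 0.339; it was not run with a single array, which leaves no residual degrees of freedom. With at least 2 probes per array, the cofactor median changed sign to -0.0617, since ALF1 dropped out (0.02 without replicate 2, 0.44 without replicate 1, 0.12 without centring), and the median of tubulins and the gamma-tubulin complex was 0.53 (0.39 as reported); it was 0.22 without centring and 0.47 after quantile normalization. The dynein median was 0.0679 with the probe nearest 0, the actin median -0.18 without centring, and the nascent chain median between 0.0363 without replicate 2 and 1.30 without replicate 1. The cause of these shifts was not tested. The setting with only probes valued on both arrays was chosen after seeing the data. No paired analysis was possible because there is a single group. Brightness over background was not used here, so the limit set by dim spots is unknown.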

Other observations

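The following was chosen after the values were seen. Of the 259 genes at or above 1 on both arrays, 14 were larger on array 1. Among them were 4 genes of the pathway lists, BUB1 (3.21 on array 1 and 3.09 on array 2), CDH1 (2.01 and 1.47), CIN8 (1.34 and 1.17) and KAR3 (1.36 and 1.14). None of the 4 high chaperonin and prefoldin genes was among these 14. With only 14 of 259 genes larger on array 1, that count does not set the 4 genes apart. MAD scaling (equal median absolute deviation on both arrays) enlarged all ratios of array 1 and shrank all ratios of array 2. By construction it thus widened the difference for positive genes already larger on array 1. BUB1 then had 4.32 on array 1 and 2.30 on array 2, and YKE2 (2.90 and 2.87) and GIM4 (1.89 on each) had nearly equal values.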
